A study of Mus musculus with 15 samples.

Results

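Rab GTPases are small GTP-binding proteins that mark the membranes of the secretory and endocytic compartments of a cell. In their GTP-bound form they sit on a given membrane and recruit effectors such as tethers, coats, lipid kinases and motor proteins, and in their GDP-bound form they are held in the cytosol. In microglia, the phagocytes of the brain, they direct cargo through early endosomes and phagosomes to lysosomes, return receptors to the surface and steer secretory vesicles.

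The members are the protein-coding mouse genes whose symbol is Rab followed by a number and at most a letter and a further digit. Of 36528 gene IDs measured, 59 had such a symbol, and 53 of these had 30 or more reads summed over the 15 libraries and are described here. The 6 below that minimum were Rab33a with 29 reads, Rab26 and Rab3b with 11 reads each, Rab44 with 6, Rab38 with 4 and Rab17 with 0. Just above it stood Rab37 with 31 reads, Rab25 with 35 and Rab27b with 36.

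RNA was sequenced from cortical microglia sorted by flow for green fluorescent protein of a Cx3cr1 reporter, which all mice of both groups carried. The 9 PS2APP libraries came from mice of an Alzheimer's disease model with transgenes for mutant forms of human presenilin 2 and of the amyloid precursor protein, 4 of them aged 14 months and 5 aged 15 months. The 6 non-Tg libraries came from mice without these transgenes, 2 aged 14 months and 4 aged 15 months. The labels give neither the promoters of the transgenes, nor whether the reporter replaces a copy of Cx3cr1, nor whether animals were pooled. They do not say that each library is a separate mouse either, so p-values measure only the spread between these libraries. The comparison asked which genes of cortical microglia differ with the amyloid-forming genotype at this age.

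Total counts were 3843223 to 6526114 reads in PS2APP and 3664742 to 8455237 reads in non-Tg libraries, and the 53 Rab genes together took 0.319% to 0.393% of the reads in PS2APP and 0.332% to 0.386% in non-Tg. The sort was led by its labelled cell type: the microglia markers Cx3cr1, P2ry12 and Tmem119 summed to 6294 to 10748 CPM in PS2APP and 9295 to 13078 CPM in non-Tg, where CPM is the count scaled to library size. Traces of other cells were present. Summed neuron markers (16 genes) lay at 72.3 to 286 CPM in PS2APP and 255 to 494 CPM in non-Tg, and choroid plexus markers (6 genes) at 4.46 to 32.3 CPM in PS2APP and 1.11 to 408 CPM in non-Tg. Replicate 9 of non-Tg held the highest sums of neuron, oligodendrocyte and choroid plexus markers. Immediate early genes were high in 4 libraries. They summed to 16704 CPM in non-Tg replicate 13 and 8899 CPM in non-Tg replicate 9. In PS2APP they summed to 4156 CPM in replicate 4 and 4007 CPM in replicate 1. The other libraries had 237 to 398 CPM. No listed marker of these cell types was at 0 in every library. In bulk libraries of this kind, fewer cells that express a gene and less RNA per cell cannot be told apart.

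Levels were compared between genes on a per-length scale, nRPKM, the deposited RPKM (reads scaled to gene length and depth) adjusted by a size factor of each library. The 53 Rab genes spanned the whole range from absent to abundant. Their median level was 3.10 nRPKM over the 15 libraries, against 1.81 nRPKM over all genes tested. A median above 30 nRPKM was reached by 2 genes and one above 10 nRPKM by 7, while 30 lay between 1 and 10 nRPKM and 16 below 1 nRPKM. The 6 most abundant made up 49.7% of the summed medians of all 53.

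The most abundant Rab was Rab1a, which governs transport from the endoplasmic reticulum to the Golgi, at a lowest, median and highest level of 32.7, 42.4 and 56.1 nRPKM in PS2APP against 31.3, 45.6 and 66.8 nRPKM in non-Tg. Rab14, which acts between the trans-Golgi network and recycling endosomes, followed at 25.5, 33.5 and 44.1 nRPKM in PS2APP against 26.4, 37.1 and 43.8 nRPKM in non-Tg. Rab14 did not overlap in range with the next gene by median. That was the only gap between neighbours in the order, since 51 of 52 pairs of neighbours overlapped over the 15 libraries. Rab14 did overlap genes further down. Rab2a reached 27.1 nRPKM in PS2APP and Rab11a 27.5 nRPKM in non-Tg, above the lowest Rab14 value of 25.5 nRPKM.

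Rab7, the Rab of late endosomes and lysosomes, came next at 15.9, 19.7 and 22.6 nRPKM in PS2APP against 14.6, 18.1 and 21.1 nRPKM in non-Tg. Rab2a, a Golgi Rab that also acts in delivery to lysosomes, had 17.0, 19.2 and 27.1 nRPKM in PS2APP against 11.9, 16.2 and 18.1 nRPKM in non-Tg. Rab10, which delivers vesicles to the plasma membrane, had 12.7, 17.2 and 24.7 nRPKM in PS2APP against 13.4, 17.1 and 24.8 nRPKM in non-Tg. The ranges of the groups overlapped for each of these genes.

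Rab11a, the Rab of the slow recycling endosome, had 9.04, 14.1 and 18.1 nRPKM in PS2APP against 14.5, 18.5 and 27.5 nRPKM in non-Tg. Its PS2APP libraries all lay below the non-Tg median, but the ranges overlapped. Of the early endosome Rabs, Rab5c was the most abundant, with 7.17, 9.93 and 12.4 nRPKM in PS2APP against 8.23, 9.88 and 12.1 nRPKM in non-Tg. Of the Rabs of lysosome-related organelles, Rab32, best known for melanosome biogenesis, was the most abundant, with 5.74, 7.38 and 13.5 nRPKM in PS2APP against 6.77, 8.56 and 9.42 nRPKM in non-Tg. At the other end, Rab27b and Rab37 of regulated secretion, the epithelial Rab25, the neuronal Rab39b, and Rab9b, Rab13, Rab30 and Rab40b all had medians between 0 and 0.0530 nRPKM.

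**Figure D1:**
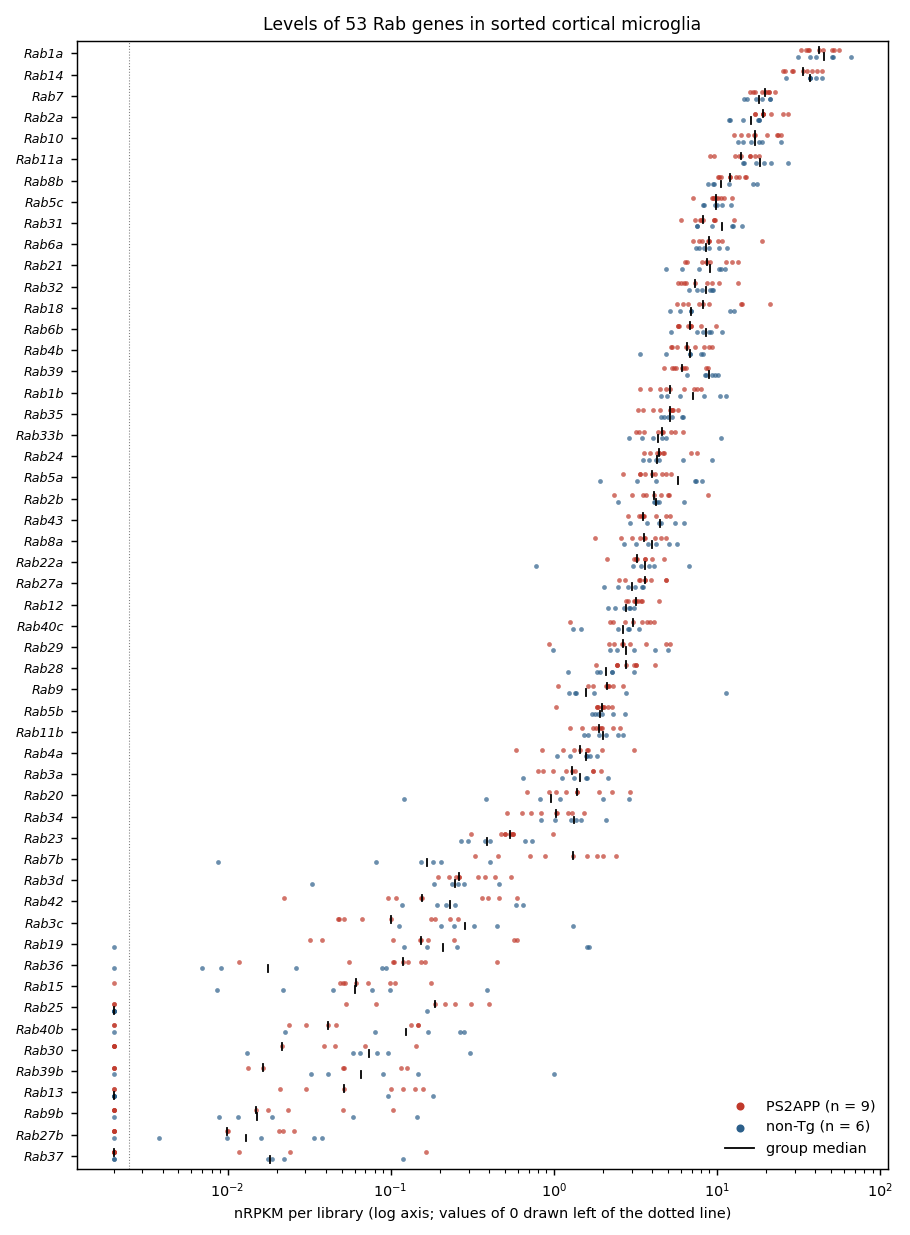
Level of each of the 53 Rab genes in every library (nRPKM, log axis), ordered by the median over the 15 libraries, with PS2APP (n = 9) above non-Tg (n = 6) in each row and group medians as black bars. Rab1a and Rab14 lead at medians of 42.4 and 37.1 nRPKM, and the groups lie over each other for nearly every gene, with Rab7b the widest separation of medians among genes tested.

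Over all 15 libraries the median coefficient of variation of the tested Rabs was 28.8%, against 39.3% over all genes tested, and that of Rab7 was 13.2%. Sequence shared with other genes, or exons that overlap theirs, may limit some of these counts. Counts are of uniquely aligned reads. On either strand, 14 of the 53 members share more than 5% of the 50-base stretches of their transcripts with another gene. The largest shares were 90.3% for Rab43, 80.3% for Rab4b, 74.2% for Rab2b and 43.5% for Rab24. Most of each came from a gene whose exons overlap at the same place (Gm45140, Gm21983, Gm43766 and Prelid1, in that order). Such stretches are not a second place in the genome. For Rab7 the share was 16.2%, most of it with the pseudogene Rab7-ps1, and for Rab7b it was 0%. The levels of these genes, and of the 11 members whose exons overlap another gene's by more than 5%, are uncertain, and these lists share members. Strandedness is not given in the sources used here.

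Genotype was tested with edgeR's quasi-likelihood test on the counts, with age as a covariate, over all 13994 genes that passed a filter on low counts, and a gene was called where its p, adjusted by the Benjamini-Hochberg method, was under 0.05. The filter kept 43 of the 53 Rabs. The 10 that it left out, Rab13, Rab15, Rab19, Rab25, Rab27b, Rab30, Rab37, Rab39b, Rab40b and Rab9b, had between 31 and 244 reads in all 15 libraries together. The most read of them, Rab19, had 0.213 to 3.89 CPM in PS2APP and 0 to 10.8 CPM in non-Tg, and Rab15, of the endocytic recycling route, had 0 to 3.40 CPM in PS2APP and 0.163 to 7.40 CPM in non-Tg.

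A single Rab was called between PS2APP and non-Tg microglia. Rab7b, a late endosomal relative of Rab7 that carries cargo from endosomes back to the trans-Golgi network and is known in macrophages as a brake on Toll-like receptor signalling, was higher in PS2APP. No other of the 43 tested Rabs was called in either direction, against 1.18% of all genes tested (0.958% called higher and 0.222% called lower), so that the share of Rabs called is near the background. At an unadjusted p under 0.05 there were 6 Rabs, against 11.7% of all genes. The log2 fold changes of the Rabs were centred close to 0, with a median of -0.03 and 21 of 43 positive, against a median of -0.02 over all genes. Of the 43, 39 lay within 1.5-fold of equality, against 11274 of all 13994 genes tested. For 35 of the 43 an approximate 95% interval, built from the standard error, lay within 2-fold, against 8231 of the 13994. Beside Rab7b, the Rabs outside 1.5-fold were Rab36 at a log2 fold change of 2.14, Rab3c at -1.70 and Rab9 at -0.61, none of them called by edgeR. In none of the 43 did the libraries of the groups separate without overlap, against 0.636% of all genes tested.

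The spread between libraries sets what this comparison could show. In simulated data made from these libraries, 45.8% of genes changed 2-fold and 76.3% of genes changed 4-fold were called. The changed genes were drawn from all genes that passed the filter, and recovery was not simulated for the Rabs alone. The median SE of the log2 fold change was 0.21 over the tested Rabs and 0.29 over all genes tested. A Rab that is not called may still differ within what its interval allows.

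**Figure D2:**
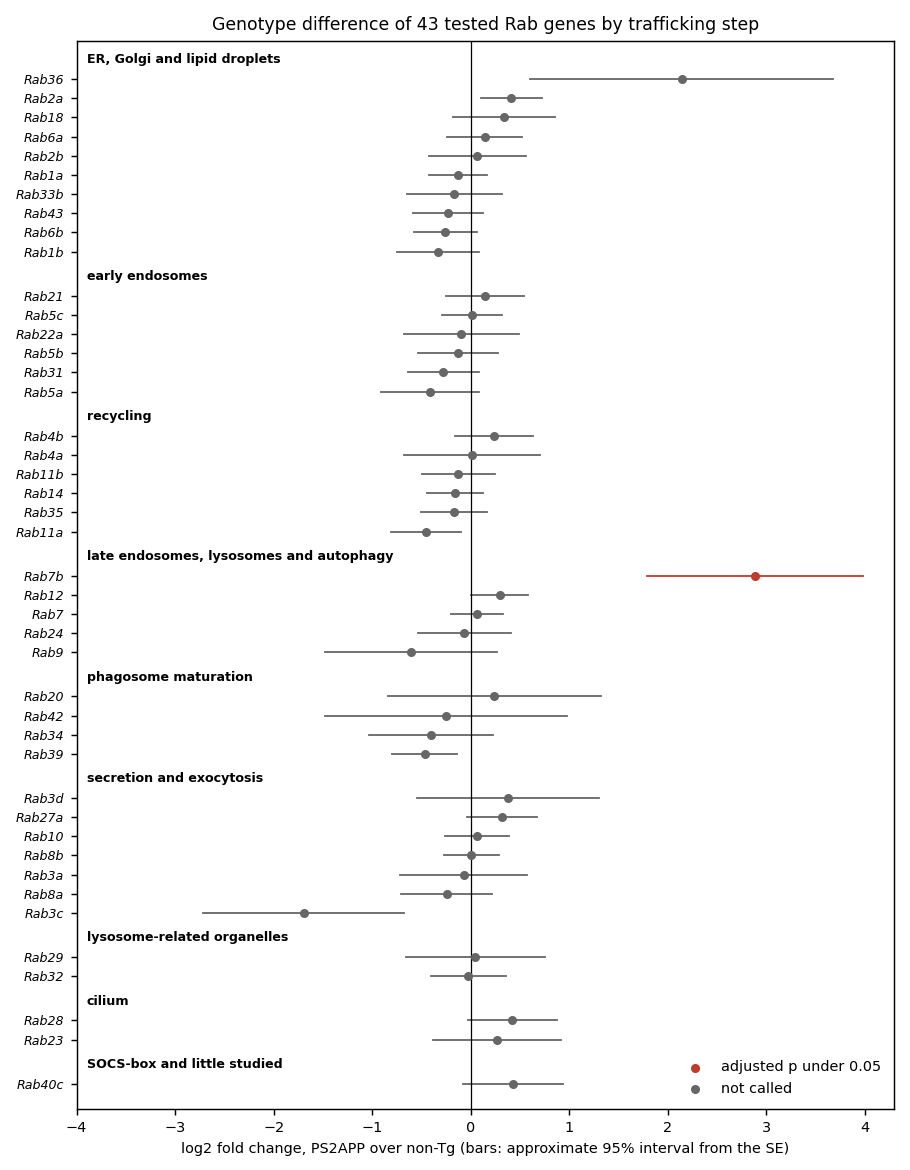
Log2 fold change, PS2APP over non-Tg, of the 43 tested Rab genes grouped by trafficking step, with approximate 95% intervals, red where the adjusted p was under 0.05. Rab7b at 2.89 is the only red point, 39 genes lie within 1.5-fold of equality, and Rab36 and Rab3c have wide intervals.

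Rab7b (Gene ID 226421; GRCm38 chromosome 1, 131688681 to 131715443) was a minor Rab in non-Tg microglia and a larger one in PS2APP microglia. Its lowest, median and highest values were 5.96, 23.5 and 43.3 CPM in PS2APP against 0.155, 3.02 and 7.25 CPM in non-Tg, and in reads it had 1139 over the 9 PS2APP libraries against 102 over the 6 non-Tg libraries. The mean was 23.0 ± 13.1 CPM (SD, n = 9) in PS2APP and 3.08 ± 2.41 CPM (SD, n = 6) in non-Tg, a 7.39-fold difference (log2 2.89 ± 0.56, SE; edgeR adjusted p = 0.00766). All 9 PS2APP libraries lay above the non-Tg median. In the low-count filter Rab7b reached the minimum in 9 PS2APP and 4 non-Tg libraries. The groups overlapped through 1 pair of libraries, PS2APP replicate 1 at 5.96 CPM and non-Tg replicate 11 at 7.25 CPM.

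PS2APP microglia varied widely in Rab7b. At 14 months the 4 PS2APP libraries had 12.8, 15.8, 36.1 and 43.3 CPM, against 1.45 and 3.60 CPM in non-Tg. At 15 months the 5 PS2APP libraries had 5.96, 8.22, 23.5, 28.3 and 33.2 CPM, against 0.155, 2.76, 3.27 and 7.25 CPM in non-Tg. The groups did not overlap at 14 months, where non-Tg had only 2 libraries, and overlapped at 15 months. How many of all genes separate on so few libraries was not counted. Tested within an age, the log2 fold change was 3.54 ± 0.65 at 14 months (edgeR adjusted p = 0.0495) and 2.58 ± 0.74 at 15 months (adjusted p = 0.172, not called), where all genes together gave 0.338% and 0.476% of calls. The difference between the ages, tested as an interaction, was -0.89 on the log2 scale (edgeR unadjusted p = 0.427).

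Summed neuron markers were lower in PS2APP (median 178 CPM, against 308 CPM in non-Tg), the group in which Rab7b was higher. Whether the sums and Rab7b were related within a group was not tested. PS2APP replicate 8 had the highest Rab7b, 43.3 CPM, and the lowest neuron sum, 72.3 CPM, and PS2APP replicate 1 had the lowest Rab7b of its group, 5.96 CPM, with a neuron sum of 256 CPM. The other libraries went both ways. PS2APP replicate 4 had the highest neuron sum of its group, 286 CPM, with a Rab7b of 15.8 CPM. PS2APP replicate 14 had a low neuron sum of 138 CPM and also a low Rab7b of 8.22 CPM. Non-Tg replicate 11 had the highest Rab7b of its group, 7.25 CPM, with a neuron sum of 379 CPM. With the neuron score of each library as a covariate the log2 fold change was 2.40 ± 0.64 and was not called (edgeR adjusted p = 0.248), and the calls over all genes fell to 34, or 0.243% of those tested. The part of other cells in the difference was not tested further. Leaving out any 1 library left Rab7b called, with log2 fold changes of 2.64 to 3.34. Its size varied more between the other settings. It ran from 0.88 with limma-trend on log2(nRPKM + 1) to 4.02 with limma-voom and sample quality weights. The non-Tg level rests on few reads, with 1 Rab7b read in non-Tg replicate 12.

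**Figure D3:**
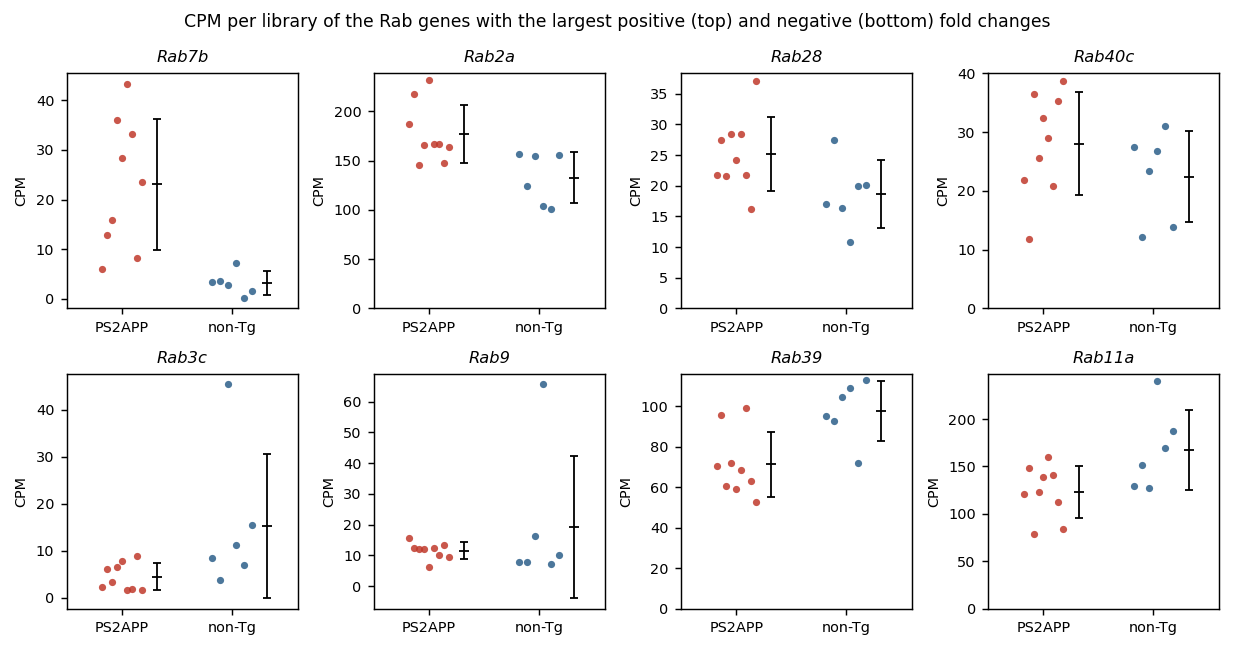
CPM in every library, PS2APP (n = 9) left and non-Tg (n = 6) right, of the 4 Rabs with the largest positive (top) and the 4 with the largest negative (bottom) log2 fold change among those averaging 2 or more on the log2 CPM scale; black bars are mean and SD. Rab7b separates the groups except for 1 pair of libraries, Rab3c rests in part on non-Tg replicate 9 at 45.4 CPM, and Rab9 on non-Tg replicate 11 at 65.7 CPM.

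Within the late endosome, lysosome and autophagy step, 5 of 6 members were tested and Rab7b alone was called. Rab7 itself, the step's most abundant member, had 157, 192 and 221 CPM (lowest, median, highest) in PS2APP against 142, 179 and 208 CPM in non-Tg, a log2 fold change of 0.07 ± 0.13 with an interval of -0.20 to 0.33. Rab9, which returns mannose 6-phosphate receptors from late endosomes to the Golgi, had 6.12, 12.2 and 15.5 CPM in PS2APP against 7.13, 9.16 and 65.7 CPM in non-Tg. Non-Tg replicate 11 alone set the sign of its log2 fold change, which was -0.61 ± 0.44 with that library and 0.22 without it, called in neither case. Rab12, a Rab of the degradation and autophagy pathway, had 86.2, 99.9 and 139 CPM in PS2APP against 66.7, 86.0 and 96.1 CPM in non-Tg (log2 0.30 ± 0.15, edgeR adjusted p = 0.446). Rab24, linked to autophagy, had a log2 fold change of -0.06 ± 0.24.

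Because Rab7 and Rab7b are read in the same libraries, their ratio does not depend on how libraries are scaled. Rab7 itself had a log2 fold change of 0.07 ± 0.13. The ratio therefore reads the Rab7b difference again from the same reads and is not separate support for it. Its test took no account of age. Rab7b made up a median of 12.4% of the reads of the pair in PS2APP (3.65% to 17.3%), against a median of 1.52% in non-Tg (0.103% to 4.07%). The log2 ratio of Rab7b to Rab7 was -3.29 ± 0.91 (SD, n = 9) in PS2APP and -6.37 ± 1.69 (SD, n = 6) in non-Tg, a difference of 3.08 (exact two-sided permutation test over 5005 splits, p = 0.000400; adjusted over 11 pairs, 0.00440). In 8 of the 9 PS2APP libraries the ratio lay above every non-Tg library.

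The same test was applied to the 11 paralogue pairs with both members tested, of 17 listed, and 1 of 11 was called, or 9.09%. No share over pairs of other genes is available to set beside it. Rab3d over Rab3a, both Rabs of regulated exocytosis, had a log2 ratio of -0.85 ± 0.60 in PS2APP and -1.56 ± 1.20 in non-Tg (exact permutation p = 0.149, adjusted 0.482). Rab2a over Rab2b had 2.02 ± 0.64 in PS2APP and 1.61 ± 0.32 in non-Tg (exact permutation p = 0.176, adjusted 0.482). Of the Rab2b stretches 74.2% are shared, most of them with Gm43766, whose exons overlap those of Rab2b. By group median, the member with more reads was the same in PS2APP and non-Tg for every pair tested. Rab1a took 90.8% of the reads of Rab1a and Rab1b in PS2APP and 89.1% in non-Tg, Rab11a took 74.3% of those of Rab11a and Rab11b in PS2APP and 76.8% in non-Tg, and Rab8a took 9.49% of those of Rab8a and Rab8b in PS2APP and 8.71% in non-Tg. Raw reads are not per length, so these shares compare groups and not the levels of the genes.

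**Figure D4:**
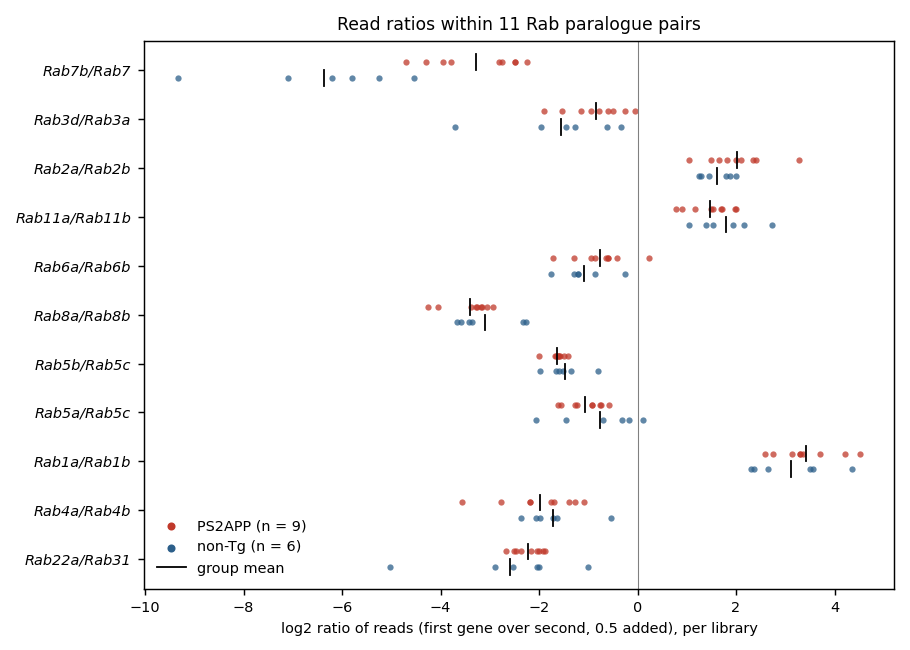
Log2 ratio of reads of the first over the second gene in 11 Rab paralogue pairs, 1 point per library, PS2APP (n = 9) above non-Tg (n = 6), with group means as black bars. Only Rab7b/Rab7 was called, with means of -3.29 in PS2APP and -6.37 in non-Tg; the points of the other pairs lie over each other.

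The Rabs of the endoplasmic reticulum, Golgi and lipid droplets formed the largest group, with 10 of 11 members tested and none called (edgeR; 2 at an unadjusted p under 0.05; median log2 fold change -0.03). Rab2a was higher in every PS2APP library than the non-Tg median, at 146, 166 and 232 CPM in PS2APP against 101, 139 and 157 CPM in non-Tg, with a log2 fold change of 0.41 ± 0.16 that did not pass the correction (edgeR adjusted p = 0.262). Rab1a had a log2 fold change of -0.13 ± 0.15, with an interval of -0.43 to 0.17. Rab6a and Rab6b, which return cargo through the Golgi, had 0.14 ± 0.19 and -0.26 ± 0.16 on the same scale. Rab18, a Rab of lipid droplets, had 0.34 ± 0.27. Rab1b, Rab2b, Rab33b and Rab43, which act in or around the Golgi, lay between -0.34 and 0.07.

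Rab36, a Golgi Rab, passed the low-count filter only through its PS2APP libraries. It had 0.213, 2.15 and 7.98 CPM (lowest, median, highest) in PS2APP against 0, 0.314 and 1.66 CPM in non-Tg, and 124 reads in PS2APP against 23 in non-Tg. Its log2 fold change of 2.14 ± 0.79 was not called (edgeR adjusted p = 0.240). PS2APP replicate 15 held the highest value, and the groups overlapped in most of the non-Tg range.

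All 6 Rabs of early endosomes were tested and none was called (edgeR; 0 at an unadjusted p under 0.05), with log2 fold changes from -0.41 to 0.14. Rab5a, which drives fusion of early endosomes, had 23.5, 35.2 and 46.0 CPM in PS2APP against 17.2, 51.0 and 71.7 CPM in non-Tg (log2 -0.41 ± 0.26, edgeR adjusted p = 0.563). All 9 PS2APP libraries lay below the non-Tg median, within a non-Tg range that was wider on both sides. Its relative Rab5c had 52.6, 73.2 and 92.5 CPM in PS2APP against 60.1, 72.9 and 89.4 CPM in non-Tg (log2 0.01 ± 0.16). Rab31 and Rab22a, which act between the trans-Golgi network and endosomes, had log2 fold changes of -0.28 ± 0.18 and -0.09 ± 0.30, and Rab21, a Rab of integrin traffic, 0.14 ± 0.20. Rab5b had -0.13 ± 0.21.

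Of the 8 recycling Rabs 6 were tested, and none was called (edgeR; 1 at an unadjusted p under 0.05; median log2 fold change -0.14). Rab11a had 78.7, 123 and 160 CPM in PS2APP against 128, 160 and 240 CPM in non-Tg. Its log2 fold change of -0.45 ± 0.18 did not pass the correction (edgeR adjusted p = 0.299), although each PS2APP library lay below the non-Tg median. Rab14 had a log2 fold change of -0.16 ± 0.14. Rab35, which acts in fast return of cargo to the surface, had -0.17 ± 0.17, and Rab4b and Rab4a, also of the fast route, 0.23 ± 0.20 and 0.01 ± 0.35. Rab11b had -0.12 ± 0.19.

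The Rabs linked to phagosome maturation numbered 5, of which 4 were tested and none was called (edgeR; 1 at an unadjusted p under 0.05). Rab39, the most abundant of them, had 52.6, 68.6 and 99.2 CPM in PS2APP against 72.04, 99.8 and 113 CPM in non-Tg (log2 -0.47 ± 0.17, edgeR adjusted p = 0.223). Each of the 9 PS2APP libraries lay below the non-Tg median, and the ranges overlapped. Rab20 and Rab34, both known from macrophage phagosomes, had log2 fold changes of 0.24 ± 0.55 and -0.40 ± 0.32, and Rab42 -0.25 ± 0.63. Rab39b, a neuronal relative of Rab39 that was too low to test, had 0 to 1.59 CPM in PS2APP and 0 to 12.8 CPM in non-Tg, with the highest value in non-Tg replicate 9, the library highest in neuron markers.

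Among the 10 Rabs of secretion and exocytosis 7 were tested and none was called by edgeR (1 at an unadjusted p under 0.05; median log2 fold change 0.01). The widest difference was that of Rab3c, a synaptic vesicle Rab, with 1.64, 3.46 and 8.97 CPM in PS2APP against 3.88, 9.85 and 45.4 CPM in non-Tg. Its log2 fold change of -1.70 ± 0.52 was not called by edgeR (adjusted p = 0.142) and was called by DESeq2 (-1.69 ± 0.51, adjusted p = 0.0350), which called 2.79% of all genes tested. Non-Tg replicate 9 held the 45.4 CPM, and without that library the edgeR log2 fold change was -1.05. With the neuron score as a covariate it was -0.98 ± 0.67, and without the 4 libraries that were high in immediate early genes, of which non-Tg replicate 9 is 1, it was -0.52 ± 0.59. The part of neuronal RNA in this difference was not tested further.

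The 2 most abundant exocytic Rabs in these cells, Rab10 and Rab8b, had narrow intervals around 0. Rab10 had 166, 228 and 324 CPM in PS2APP against 177, 224 and 327 CPM in non-Tg, a log2 fold change of 0.07 ± 0.16 with an interval of -0.26 to 0.39. Rab8b, a Rab of vesicle delivery to the surface, had 224, 265 and 334 CPM in PS2APP against 192, 233 and 385 CPM in non-Tg (log2 0.01 ± 0.14). Rab27a, which docks secretory lysosomes at the plasma membrane, had 44.8, 63.9 and 87.2 CPM in PS2APP against 36.3, 53.2 and 62.3 CPM in non-Tg (log2 0.31 ± 0.18, edgeR adjusted p = 0.521). The groups overlapped for all 3 genes. Rab8a had a log2 fold change of -0.24 ± 0.24, Rab3a -0.07 ± 0.33 and Rab3d 0.38 ± 0.47.

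The remaining groups were small, and none of their members was called. Rab32 had 44.1, 56.7 and 105 CPM in PS2APP against 52.3, 66.1 and 72.6 CPM in non-Tg (log2 -0.03 ± 0.19). Rab29, which recruits the Parkinson's disease kinase LRRK2 to membranes and lies near Rab7b on chromosome 1 (131867210 to 131872887), had 4.76, 13.7 and 26.6 CPM in PS2APP against 5.07, 14.2 and 25.7 CPM in non-Tg (log2 0.05 ± 0.36). For both of these Rabs of lysosome-related organelles the non-Tg range lay within the PS2APP range.

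Rab28, a Rab of cilia, had 16.2, 24.3 and 37.1 CPM in PS2APP against 10.8, 18.5 and 27.4 CPM in non-Tg (log2 0.42 ± 0.23, edgeR adjusted p = 0.491). Rab23, which restrains Hedgehog signalling, had a log2 fold change of 0.26 ± 0.33. Rab40c, a Rab with a SOCS box that joins a ubiquitin ligase, had 11.7, 29.0 and 38.7 CPM in PS2APP against 12.2, 25.0 and 31.0 CPM in non-Tg (log2 0.43 ± 0.26, edgeR adjusted p = 0.549). The ranges of the groups overlapped for each.

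Of the 14 Rabs known as substrates of LRRK2, 13 were tested and none was called by edgeR, with 6 positive and a median log2 fold change of -0.07; Rab3c alone among them had an unadjusted p under 0.05. Lrrk2 itself was low, at 2.56 ± 2.19 CPM (SD, n = 9) in PS2APP and 6.69 ± 4.31 CPM (SD, n = 6) in non-Tg, with a log2 fold change of -1.33 ± 0.56 that did not pass the correction (edgeR adjusted p = 0.341).

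Age within this range was compared in the same fit. No Rab was called between 15 and 14 months by edgeR, as was no other gene (0.00% of 13994), and 4 Rabs had an unadjusted p under 0.05, against 7.95% of all genes. These were Rab8b (log2 -0.44, 15 over 14 months), Rab1a (-0.37), Rab1b (0.58) and Rab4b (0.52), so the paralogues Rab1a and Rab1b had opposite signs. The genotype by age interaction called no Rab and no other gene (0.00%), and Rab36 alone had an unadjusted p under 0.05 (0.0247, edgeR), against 7.42% of all genes. In simulated data the interaction recovered 18.6% of 4-fold differences, so it could have missed differences of that size.

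Genes that control Rabs were read from 3 lists in the same fit. The 51 tested exchange factors and membrane delivery genes, which load Rabs with GTP or carry them to membranes, included none called (edgeR; 2 at an unadjusted p under 0.05; median log2 fold change -0.01). Gdi2, a GDP dissociation inhibitor that extracts Rabs from membranes, had 380 ± 62.5 CPM (SD, n = 9) in PS2APP and 389 ± 76.3 CPM (SD, n = 6) in non-Tg. The 3 with the smallest p were Ccz1, part of the exchange factor of Rab7, at a log2 fold change of -0.47 ± 0.19, Ankrd27, an exchange factor of Rab21, at 0.49 ± 0.21, and Dennd5b, a DENN-domain protein, at -1.16 ± 0.57. None of these 3 had an edgeR adjusted p below 0.329.

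Of 32 tested GTPase-activating proteins, which end the active state of Rabs, none was called (edgeR; 4 at an unadjusted p under 0.05; median log2 fold change 0.03). The 3 with the smallest p, all TBC-domain proteins, did not pass the correction: Tbc1d4, which acts on Rab10, at 0.48 ± 0.18, Tbc1d12 at 0.65 ± 0.27 and Tbc1d8 at 0.43 ± 0.20 on the log2 scale. Their edgeR adjusted p were 0.264, 0.321 and 0.394.

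Of 55 tested Rab effectors, 2 were called, Myo5a and Optn. Both were higher in PS2APP, where 0.958% of all genes were called higher. Optn was tested only through the group in which it is high, so its direction is not separate support. At an unadjusted p under 0.05 there were 7, against 11.7% of all genes, a share near the background, and the median log2 fold change was 0.04. The first was Myo5a, the class V myosin that Rab27a and Rab11a use to carry vesicles along actin, with 139, 178 and 208 CPM (lowest, median, highest) in PS2APP against 31.5, 70.2 and 88.8 CPM in non-Tg. Every PS2APP library lay above every non-Tg library, as in 0.636% of all genes tested. Its mean was 173 ± 24.6 CPM (SD, n = 9) in PS2APP and 68.5 ± 19.9 CPM (SD, n = 6) in non-Tg, a 2.51-fold difference (log2 1.33 ± 0.19, SE; edgeR adjusted p = 0.000291). The lowest non-Tg library was replicate 11, and without it the log2 fold change was 1.19.

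The second was Optn, optineurin, an effector of Rab8 and a receptor for selective autophagy, with 2.66, 5.47 and 10.2 CPM in PS2APP against 0.414, 1.38 and 1.96 CPM in non-Tg. Every PS2APP library lay above every non-Tg library. Optn reached the minimum of the low-count filter in 9 PS2APP libraries and 1 non-Tg library, so it was tested only through the group in which it is high. A gene at its non-Tg level in both groups would likely not have been tested. Its mean was 6.09 ± 2.17 CPM (SD, n = 9) in PS2APP and 1.22 ± 0.64 CPM (SD, n = 6) in non-Tg, a 4.85-fold difference (log2 2.28 ± 0.49, SE; edgeR adjusted p = 0.0179), resting on 295 reads in PS2APP and 46 in non-Tg. With the neuron score as a covariate Myo5a had a log2 fold change of 1.30 ± 0.26 and was called (edgeR adjusted p = 0.0257), and Optn had 2.37 ± 0.61 and was not (adjusted p = 0.193). Within an age, Myo5a was called at 15 months only (edgeR adjusted p = 0.0535 at 14 months and 0.0360 at 15 months) and Optn at neither (0.201 and 0.197), on fewer libraries.

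Eea1, the tether of Rab5 on early endosomes, had 79.6, 111 and 165 CPM in PS2APP against 45.8, 66.1 and 93.9 CPM in non-Tg, and did not pass the correction (log2 0.72 ± 0.19, edgeR adjusted p = 0.0776). It was called by DESeq2 (adjusted p = 0.0196), by edgeR without the 4 libraries that were high in immediate early genes (adjusted p = 0.0374) and by edgeR without PS2APP replicate 8 (adjusted p = 0.0469), and in none of the other alternatives run for it. All 9 PS2APP libraries lay above the non-Tg median, with the ranges overlapping. Mlph, the adaptor that links Rab27a to Myo5a, had 173 ± 39.8 CPM (SD, n = 9) in PS2APP and 178 ± 47.4 CPM (SD, n = 6) in non-Tg (log2 -0.01 ± 0.17). Mlph and Gdi2 were named after their values were seen, and Lrrk2 also lies outside the rule by which effectors were named. The Rabs that use Myo5a, Rab27a at log2 0.31 ± 0.18 and Rab11a at -0.45 ± 0.18, were not called.

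**Figure D5:**
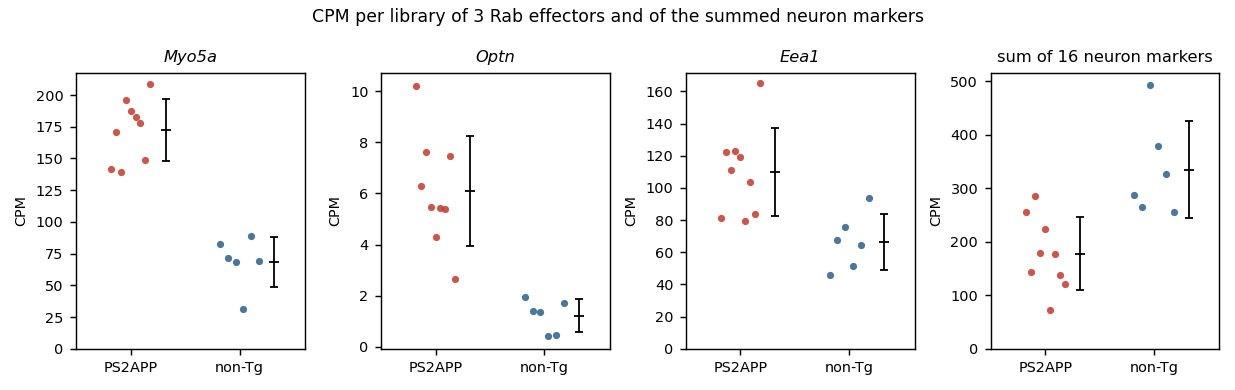
CPM in every library, PS2APP (n = 9) left and non-Tg (n = 6) right, of the called effectors Myo5a and Optn, of Eea1, which was not called, and of the sum of 16 neuron markers; black bars are mean and SD. Myo5a (139 to 208 against 31.5 to 88.8 CPM) and Optn (2.66 to 10.2 against 0.414 to 1.96 CPM) separate the groups, and the neuron sum is lower in PS2APP (72.3 to 286 against 255 to 494 CPM). Optn was tested only through the group in which it is high.

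The promoter windows of the 2 effectors called higher in PS2APP, 250 bases before to 50 after the annotated start from RefSeq (GRCm38.p6), are shown to let them be compared; the table held no window for Rab7b. They are printed 5′ to 3′ on the gene's strand, Myo5a at chr9:75070956-75071255 (plus strand) and Optn at chr2:5064068-5064367 (minus strand), with no capitals since neither held a motif searched.
Myo5a: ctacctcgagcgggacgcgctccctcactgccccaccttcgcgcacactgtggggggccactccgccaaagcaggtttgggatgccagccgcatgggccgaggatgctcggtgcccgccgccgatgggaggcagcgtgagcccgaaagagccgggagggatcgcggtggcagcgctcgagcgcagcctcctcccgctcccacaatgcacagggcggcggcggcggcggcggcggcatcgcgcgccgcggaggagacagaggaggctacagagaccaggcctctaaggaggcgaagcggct
Optn: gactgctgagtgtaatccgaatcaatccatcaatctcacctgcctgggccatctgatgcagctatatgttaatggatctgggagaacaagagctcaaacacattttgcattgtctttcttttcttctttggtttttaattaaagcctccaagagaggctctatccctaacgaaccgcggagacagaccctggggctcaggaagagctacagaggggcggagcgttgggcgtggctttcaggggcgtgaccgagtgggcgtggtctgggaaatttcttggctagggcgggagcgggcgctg

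The motifs were searched on both strands as exact letters. They were CACGTG, the E-box of the lysosomal gene regulator TFEB, in 7.15% of all 32851 windows, GAGGAA, the core of the PU.1 site, in 28.3%, TGANTCA, the AP-1 site, in 7.81%, and a pair of GAAA blocks 2 bases apart, an interferon response element, in 3.44%. Neither window held any of the 4. Among 57 windows of 45 Rab genes, CACGTG was found in 6, those of Rab20, Rab21, Rab23, Rab24, Rab27a and Rab5a, or 10.5%. None of these 6 Rabs was called for genotype by edgeR, and none had an unadjusted p under 0.05, with log2 fold changes from -0.41 to 0.31. GAGGAA was in 11 Rab windows (19.3%), TGANTCA in 3 (5.26%) and the GAAA pair in 1 (1.75%). A match describes the letters of these windows only.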

How the data were processed

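RNA was extracted from the sorted cells with a column kit, per the labels' protocols, and, per the submitters' processing notes, GSNAP aligned the reads to GRCm38. Each of the 15 samples has a table of 36528 NCBI Gene IDs. Per the file headers, it holds the raw count of uniquely aligned reads and nRPKM, an RPKM that the authors adjusted by a size factor. Symbols came from a RefSeq table that matched 31049 IDs, with 97.2% to 98.2% of each library's reads. No pair of samples of a group looked like a library deposited again (51 pairs, chi-square per degree of freedom 9.98 to 67.5); this does not show that they are separate mice.

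Counts were filtered (filterByExpr on genotype, minimum count 10), scaled by TMM and fitted with age and genotype in edgeR 4.0.16 (R 4.3.3). Calls are at a Benjamini-Hochberg adjusted p under 0.05 over all genes tested. SE is the absolute log2 fold change over the root of F. Paralogue ratios (0.5 added to the counts) used an exact permutation test. Members, lists, markers and alternatives were chosen with earlier results of these data known, so none is independent of them. Full values are given for called members, the 6 highest levels, the highest level and smallest p in each trafficking step, and the 4 largest positive and negative fold changes at an average log2 CPM of at least 2. Regulators and effectors are named if called, otherwise the 3 with the smallest adjusted p; pairs likewise. Values outside this rule are given to account for every member. The fit was tested on simulated data in which 200 genes were changed: 5.6% of the genotype calls were false. Shared 50-base stretches and exon overlaps came from GENCODE transcripts of GRCm38. The alternatives used DESeq2 1.42.0, limma 3.58.1 (voom with quality weights, and trend on log2(nRPKM + 1)), other scalings and filters, no age term, a neuron score, each age alone, sets of libraries left out, and each sample left out. One microglia marker is not reported here.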

Additional observations from a re-analysis of the deposited data

Results flagged for a closer look

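Each of 92 groups (the 9 PS2APP or the 6 non-Tg libraries, for a tested Rab gene or a called or near-called effector) was checked for a single library far from the rest of its group, and 11 were set apart, where chance sets apart about 1 in 20. PS2APP replicate 15 accounted for 4 of them. It had the highest values of its group for Rab36 (7.98 CPM, with the next library at 2.89), Rab23 (16.6 CPM, next 9.53) and Eea1 (165 CPM, next 123), and the lowest for Rab5b (13.1 CPM, next 23.1).

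Non-Tg replicate 11 accounted for 3. It was highest for Rab9 (65.7 CPM, next 16.2) and Rab33b (138 CPM, next 64.2), and lowest for Myo5a (31.5 CPM, next 68.0). Non-Tg replicate 9 was highest for Rab3c (45.4 CPM, next 15.6). PS2APP replicate 1 was highest for Rab12 (139 CPM, next 108) and Rab2b (91.5 CPM, next 52.8), and PS2APP replicate 7 for Rab6a (233 CPM, next 133).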

How the results depend on the processing

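Rab7b was the 1 Rab called under every alternative run except 2, with the neuron score as a covariate and at 15 months alone, where 0 Rabs were called; DESeq2 called 2, Rab7b and Rab3c. The calls over all genes were 165, against 390 with DESeq2, 34 with the neuron score, 50 at 14 months and 65 at 15 months. They were 81 without the 3 libraries low in Xist, and 118 to 188 with each library left out in turn. The 3 low in Xist were PS2APP replicate 14 and non-Tg replicates 12 and 13, so the groups were not balanced for them. Their Rab7b levels were 8.22, 0.155 and 1.45 CPM, in that order. What low Xist reflects was not tested. Of the regulators and effectors, 2 were called, against 1 under the stricter count filter, which dropped Optn, 1 with the neuron score, 0 at 14 months, 1 at 15 months and 1 without the 3 libraries low in Xist, and 2 to 3 with each library left out; the third was Eea1, also called by DESeq2 and without the 4 libraries that were high in immediate early genes. Myo5a lost its call only at 14 months (log2 1.33, adjusted p = 0.0535). Optn lost its call with the neuron score, at each age alone, without those 4 libraries and without the 3 low in Xist, at log2 2.004 to 2.46. Fits at one age hold fewer samples; the other causes were not tested. Age and interaction called 0 Rabs under each alternative run for them. The Rab7b to Rab7 ratio was called in the 19 alternatives run for it, with differences of 2.29 to 3.45. These were added counts, both sets of libraries left out and each library left out. The smallest difference, 2.29, came without the 3 libraries low in Xist (exact permutation test, adjusted p = 0.0444). The 2 settings that ended the call of Rab7b itself were not run for the ratio. Of 1448 values of single genes under an alternative, 1436 kept their direction or lay within their error and kept their side of the threshold. In CPM in place of nRPKM, 23 Rabs had a higher median in PS2APP, as in nRPKM. No paired analysis was possible because the groups share no replicate numbers. Genes with few reads, such as Rab36 and Optn, are limited by depth.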
